A study of Sus scrofa with 8 samples.

Results

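STAT2, IRF7 and IRF9 are transcription factors of interferon signalling, and 7 of the 43603 probes of a porcine array stood for them in whole blood of 8 sows (Sus scrofa). They are 3 of 2389 genes whose probes could be named. The members were found by gene symbol: a probe was taken when the RefSeq transcript named in the scanner files belonged to 1 of the 3 genes. STAT2 had 5 such probes, IRF7 had 1 and IRF9 had 1. Blood came from 4 pregnant and 4 non-pregnant sows, all in the fifth parity and all sampled 14 days after insemination. No treatment other than insemination is named in the labels. Each sow was measured on 1 single-colour array. The sows were not all unrelated, since 3 pairs were half-sibs by the submitters' account and 1 pair was not. The blood, from the submandibular vein, was mixed with a lysis solution at collection. Whole blood is a mixture of cells, and in such samples fewer cells of a type and less RNA per cell cannot be told apart.

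Type I interferons bind a receptor whose kinases, JAK1 and TYK2, phosphorylate STAT2. Phosphorylated STAT2 joins IRF9, the DNA-binding partner, in the complex ISGF3, which switches on interferon-stimulated genes. IRF7 acts elsewhere in the loop: it is activated downstream of sensors of viral nucleic acid and drives transcription of type I interferon genes, and its own gene is itself induced by interferon. Interferons from the conceptus are the background to the question in pigs, because pig conceptuses secrete interferon gamma and interferon delta around the time of attachment. The comparison of pregnant with non-pregnant sows asks whether expression in maternal blood differs with pregnancy at this stage.

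Levels are given as log2 of the spot's processed signal minus the 75th percentile of its array, so that 0 is the 75th percentile and a step of 1 is a doubling. All 7 probes were well above background on all 8 arrays, saturation was not seen (0 spots) and the scanner software marked none of the members' spots as an outlier. Array-wide, 61.7% to 69.2% of spots were well above background. Pregnant replicate 2 stood apart from the other arrays: its 75th percentile signal was 142, below the 175 to 296 of the others, and its correlation with another array fell as low as 0.870, where the 7 other arrays correlated with each other at 0.946 or higher. Markers of neutrophils, monocytes, T cells, B cells, cytotoxic cells and platelets had named probes. Red cell and plasmacytoid dendritic cell markers were not measured here (0 of 9 and 0 of 6).

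IRF7 had the widest range of the 3 genes, and its extremes all lay in pregnant sows. In the pregnant group IRF7 stood at 4.66, 7.50, 6.46 and 4.31 in replicates 1 to 4. In the non-pregnant group it stood at 4.95, 5.22, 5.58 and 5.09. Pregnant replicates 2 and 3 were above every non-pregnant sow and pregnant replicates 1 and 4 were below every one, so that the groups overlapped with the pregnant sows on both sides. From the lowest to the highest array the signal differed 9.15-fold.

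The mean of IRF7 was 5.73 ± 1.51 in pregnant and 5.21 ± 0.27 in non-pregnant sows (SD, n = 4 each). That was a 1.44-fold difference (95% interval 0.540 to 3.82, limma adjusted p = 1.00), which did not pass the test. Without pregnant replicate 2 the log2 fold change was -0.066 in place of 0.52. Within slide 1 it was 0.30 and within slide 2 it was 0.75. With arrays weighted by their estimated quality it was 0.94 (limma unadjusted p = 0.0602, adjusted 0.657). The estimation of these weights stopped early, and the weighted pregnant mean rested mainly on replicate 3, where IRF7 stood at 6.46. That array had the largest weight of all, where pregnant replicates 1, 2 and 4 had 0.605, 0.337 and 0.604. With the weights 2076 of 26476 probes had an unadjusted limma p under 0.05, against 609 without them.

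IRF7 values lay farther apart among pregnant sows, a difference that did not pass after adjustment. The SD among pregnant sows was 5.61 times that among non-pregnant sows. A two-sided permutation test of the group labels, over deviations from the group mean, gave p = 0.0286, the smallest that 4 against 4 arrays allow. After Benjamini-Hochberg adjustment over the 3 genes it was 0.0857. This test was planned because earlier results of these data showed interferon-stimulated genes varying most among non-pregnant sows. Its p-values therefore do not come from a question posed independently of these arrays. The same test gave an adjusted p of 0.629 for STAT2 and 0.343 for IRF9, whose SD differed between groups 1.58-fold and 1.57-fold (permutation, n = 4 each). The brightest STAT2 probe (probe 1) was more variable among pregnant sows and IRF9 among non-pregnant sows. STAT2 probe 5 was also more variable among pregnant sows (SD 0.57 against 0.51). Probes 2, 3 and 4 were less variable among pregnant sows (0.31, 0.23 and 0.36) than among non-pregnant sows (0.71, 1.14 and 0.55). For probe 1 the log2 ratio of the SDs, non-pregnant over pregnant, was -0.66, and 0.47 when pregnant replicate 2 was left out. Without pregnant replicate 2 the log2 ratio of the IRF7 SDs was -2.10 in place of -2.49 (adjusted permutation p = 0.343).

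**Figure D1:**
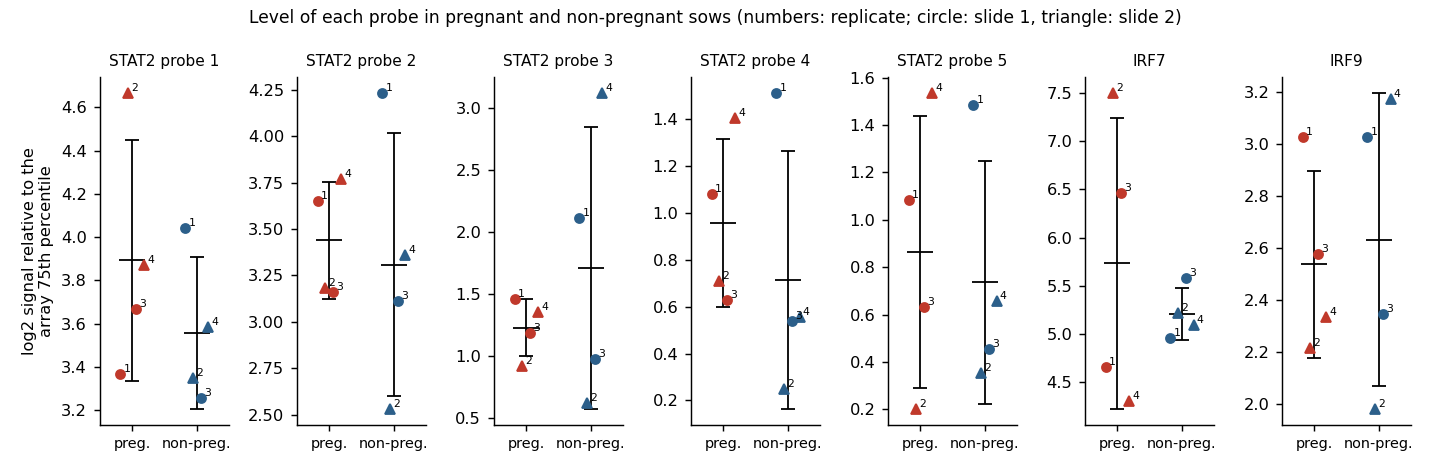
Level of each of the 7 probes, as log2 signal relative to the array's 75th percentile (vertical axes, each with its own range), in pregnant (red) and non-pregnant (blue) sows; points are sows, numbers are replicates, circles are slide 1 and triangles slide 2, and bars are the group mean and SD (n = 4). The groups overlap in every panel, IRF7 spreads from 4.31 to 7.50 among pregnant sows, and STAT2 probe 3 is highest at 3.12 in non-pregnant replicate 4.

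The IRF7 level followed a pattern that ran through the whole array. Its Pearson r with the first principal component of all kept probes was 0.930 over the 8 arrays (exact permutation p = 0.00146, adjusted 0.0205 over 14 relations), and Spearman's rho was 0.952 (adjusted exact permutation p = 0.0160). The IRF7 probe is 1 of the probes in that component, and its SD over the 8 arrays was above that of 91.4% of kept probes. The component follows the most variable probes by construction, so the p-value does not measure how unusual this r is. IRF7 shared this pattern with many genes: 233 of 1816 had r above 0.8 with it. Without pregnant replicates 1 and 2, the arrays farthest out on the component, r was 0.806 (exact permutation p = 0.0264, n = 6). None of the other 6 probes had an adjusted exact permutation p under 0.05 for this component, with r from -0.740 for STAT2 probe 5 to 0.620 for STAT2 probe 1. With the log2 of the 75th percentile signal, IRF7 had an r of -0.654 (adjusted exact permutation p = 0.253), which was 0.131 without the same 2 arrays.

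**Figure D2:**
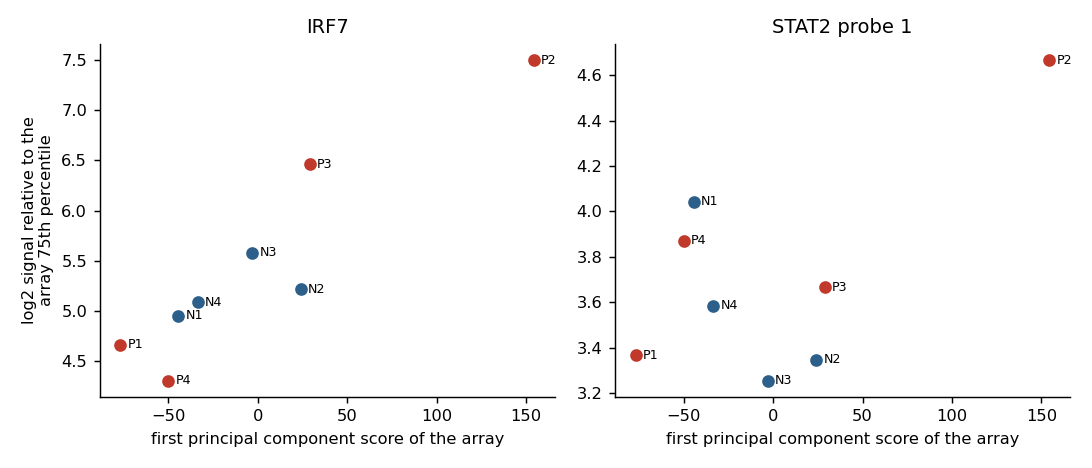
Log2 level of IRF7 (left) and STAT2 probe 1 (right) against the array's score on the first principal component of all kept probes; each point is 1 sow (P pregnant, red; N non-pregnant, blue; with the replicate number). IRF7 follows the score over all 8 arrays (r = 0.930), while STAT2 probe 1 is high on pregnant replicate 2 and has an r of -0.279 over the other 7 arrays.

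Markers of neutrophils and T cells also lay outside the range of the other arrays on pregnant replicate 2, where IRF7 was highest. The mean level of 7 neutrophil markers was 2.61 there and 1.19 to 2.19 on the other arrays, and that of 6 T cell markers was 1.24 there and 1.67 to 2.12 elsewhere. The means of monocyte (3.13), B cell (-0.19), cytotoxic cell (0.43) and platelet markers (5.14) on that array lay within the range of the others. The 4 monocyte markers measured had a mean level of 3.04 to 3.29 in pregnant sows and 2.46 to 2.76 in non-pregnant sows, all 4 of them with a positive log2 fold change (median 0.56). All 6 T cell markers (median -0.35), all 5 markers of cytotoxic cells (-0.29) and both B cell markers (-0.28) had a negative one. Of the 7 neutrophil markers 5 were positive and 2 negative, and of the 4 platelet markers 1 was positive and 3 negative. The mean of 5 markers of cytotoxic cells ran from -0.22 to 0.43 with pregnancy and from 0.34 to 0.83 without, and that of 2 B cell markers from -0.25 to 0.20 and from -0.22 to 0.46. The mean of 4 platelet markers was 4.37 to 5.14 with pregnancy and 4.65 to 5.29 without. Over all 1817 genes measured, 44.6% had a positive log2 fold change, and the groups did not overlap in 1.58% of all probes kept. The marker lists were chosen with earlier results of these data known, so their counts are a description. The part of these markers in the levels of IRF7, STAT2 and IRF9 was not tested.

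The IRF9 probe had the smallest mean difference of the 7 probes. Its level was 3.03, 2.21, 2.58 and 2.33 in pregnant replicates 1 to 4 and 3.03, 1.98, 2.35 and 3.17 in non-pregnant replicates 1 to 4. The highest and the lowest value both came from non-pregnant sows, replicate 4 and replicate 2, and all pregnant sows lay between them. The means were 2.54 ± 0.36 and 2.63 ± 0.56 (SD, n = 4 each), or 0.937-fold in pregnant sows (95% interval 0.561 to 1.56, limma adjusted p = 1.00). The sign of this difference was not stable: the log2 fold change was 0.11 within slide 1 and -0.30 within slide 2.

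The STAT2 probes differed from each other in the sign and size of the difference. The probes are numbered from the brightest, A_72_P088106 (probe 1), through A_72_P651117 (probe 2), A_72_P531831 (probe 3) and A_72_P442654 (probe 4) to A_72_P516487 (probe 5), and all 5 were designed against NM_213889. Probe 1, which stood for the gene in the fit by gene, was at 3.37, 4.67, 3.67 and 3.87 in pregnant and at 4.04, 3.35, 3.25 and 3.59 in non-pregnant replicates 1 to 4. Its highest value was on pregnant replicate 2, and the groups overlapped. The means were 3.89 ± 0.56 and 3.56 ± 0.35 (SD, n = 4 each), a 1.26-fold difference (95% interval 0.759 to 2.10, limma adjusted p = 1.00). Without pregnant replicate 2 the log2 fold change fell from 0.34 to 0.077, and with the mean of all 5 probes in place of probe 1 it was 0.072.

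Probes 2, 4 and 5 of STAT2 shared a profile that did not separate the groups. Probe 2 was at 3.65, 3.18, 3.16 and 3.77 in pregnant and at 4.23, 2.53, 3.11 and 3.36 in non-pregnant replicates 1 to 4. It was thus highest in non-pregnant replicate 1 and lowest in non-pregnant replicate 2, with every pregnant sow between. Probe 4 ran from 0.63 to 1.41 in pregnant and from 0.25 to 1.51 in non-pregnant sows, with the same pair of sows at the ends. Probe 5 ran from 0.20 to 1.54 in pregnant and from 0.35 to 1.48 in non-pregnant sows, and was lowest on pregnant replicate 2, the array where probe 1 was highest. Their log2 fold changes were 0.13, 0.24 and 0.13, each with a standard error between 0.33 and 0.36 (limma adjusted p = 1.00).

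Probe 3 was the only STAT2 probe with a negative log2 fold change. It was at 1.46, 0.92, 1.18 and 1.36 in pregnant and at 2.11, 0.62, 0.98 and 3.12 in non-pregnant replicates 1 to 4. The difference rested on non-pregnant replicate 4, the highest array, where probe 2 (3.36), probe 4 (0.56) and probe 5 (0.66) were not at an end of their own ranges. The log2 fold change was -0.48 (95% interval -1.59 to 0.63, limma adjusted p = 1.00), and it was -0.0070 without non-pregnant replicate 4.

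Across the 7 probes, then, log2 fold changes ran from -0.48 to 0.52, and 0 of 7 passed the test. Over all 26476 probes kept, limma called 0 probes (0%) at an adjusted p under 0.05, and 609 (2.30%) had an unadjusted p under 0.05, where the smallest unadjusted p among the 7 probes was 0.331. The groups did not overlap in 417 probes (1.58%), none of them a probe of STAT2, IRF7 or IRF9. The 95% interval of a member probe reached 0.81 on the log2 scale to either side (median of 7), so that a difference of that size in either direction was within the interval of a probe at 0.

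**Figure D3:**
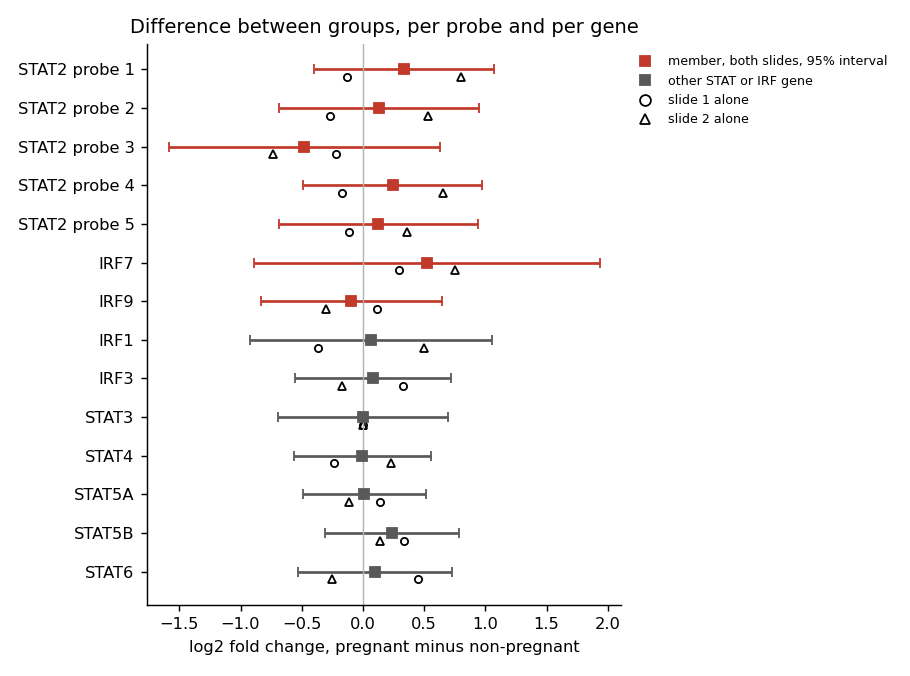
Log2 fold change, pregnant minus non-pregnant (horizontal axis), for the 7 member probes (red) and the brightest probe of 7 other STAT and IRF genes (grey); squares are the limma estimate over all 8 arrays with its 95% interval, open circles slide 1 alone and open triangles slide 2 alone. Every interval includes 0, and 4 of the 5 STAT2 probes lie below 0 on slide 1 and above 0 on slide 2.

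The 2 slides gave differences of opposite sign for most STAT2 probes. Each slide held 2 arrays of each group. Within slide 1 the log2 fold changes of STAT2 probes 1, 2, 4 and 5 were -0.13, -0.27, -0.17 and -0.11, and within slide 2 they were 0.80, 0.53, 0.66 and 0.36. Probe 3 was negative on both, at -0.22 and -0.73. The difference between slides was itself tested: for probe 1 it was 0.93 (slide 2 minus slide 1, SE 0.65) with a limma adjusted p of 1.00, and the smallest unadjusted p for this difference among the 7 probes was 0.185. The interaction called 0 of the 26476 probes (0%), and 5.58% had an unadjusted p under 0.05.

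The STAT2 probes followed each other only in part. Of the 10 pairs of STAT2 probes, 3 had a Pearson r past the threshold, all of them among probes 2, 4 and 5. These were r = 0.944 for probes 2 and 4 (adjusted exact permutation p = 0.00322), 0.915 for probes 4 and 5 (0.0107) and 0.864 for probes 2 and 5 (0.0107). Spearman's rho for the same pairs was 0.929, 0.714 and 0.833 (adjusted exact permutation p = 0.0223, 0.0960 and 0.0769). Leaving out the 2 arrays farthest from the median gave r of 0.916, 0.690 and 0.924. The other 7 pairs, each with probe 1 or probe 3, had r from 0.0054 to 0.518 (adjusted exact permutation p from 0.496 to 0.989). When replicate 1 of either group was left out, only probes 2 and 4 still passed (1 of 10 pairs, adjusted exact permutation p = 0.0258 for the pregnant and 0.0377 for the non-pregnant sow). Leaving out non-pregnant replicate 4 raised the number to 6.

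**Figure D4:**
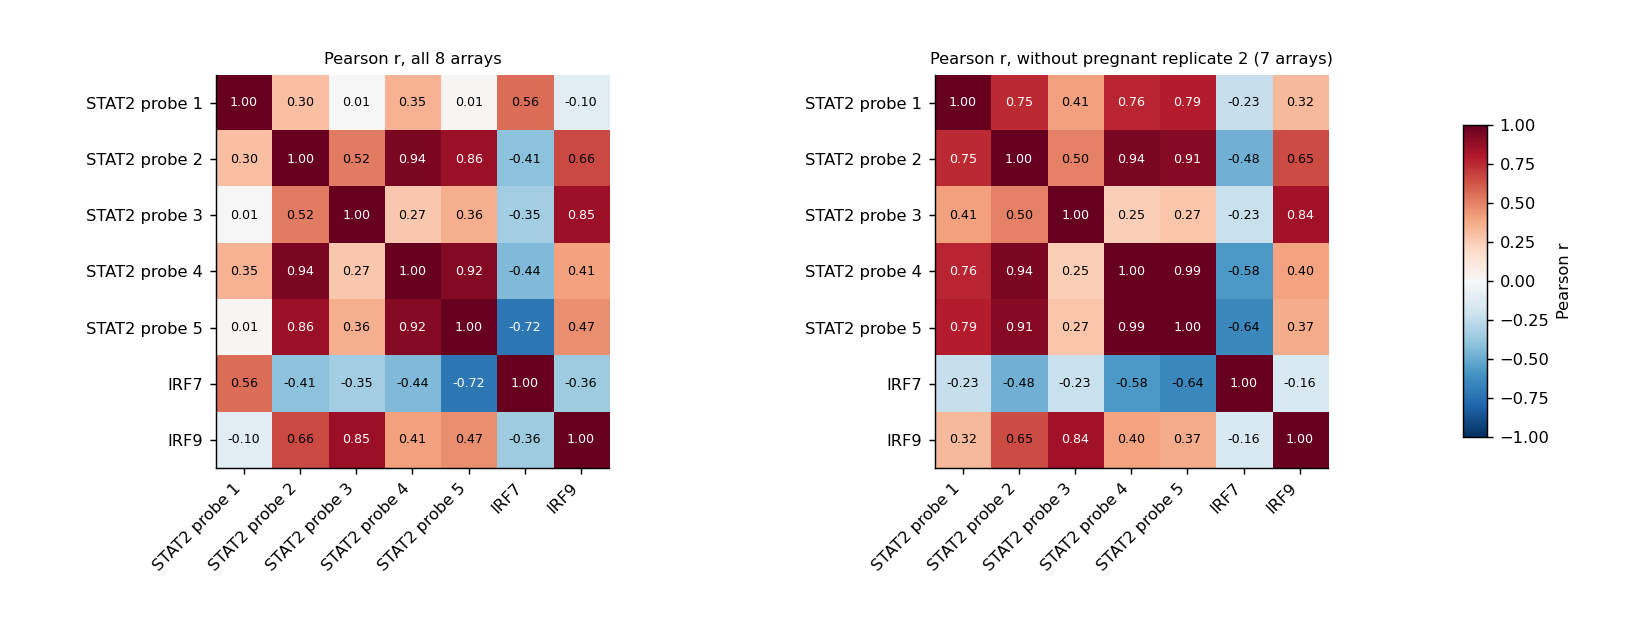
Pearson r between each pair of the 7 probes over all 8 arrays (left) and over the 7 arrays without pregnant replicate 2 (right), on a colour scale from -1 to 1. STAT2 probes 2, 4 and 5 form a block on both sides, STAT2 probe 1 joins it on the right (0.746, 0.758 and 0.786), and STAT2 probe 3 lies closest to IRF9 (0.854 and 0.841).

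Each departure lay mainly on 1 array. Without pregnant replicate 2, probe 1 had r of 0.746, 0.758 and 0.786 with probes 2, 4 and 5, against 0.303, 0.345 and 0.012 over all 8 arrays. Probe 3, with non-pregnant replicate 4 left out, had r of 0.957, 0.892 and 0.835 with them, against 0.518, 0.268 and 0.363. With both arrays left out, all 10 pairs of STAT2 probes had r between 0.746 and 0.988 over the remaining 6 arrays. These arrays were chosen after their values were seen, so the last figures are a description.

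No pair among STAT2, IRF7 and IRF9 passed the test for varying together across sows. With the brightest STAT2 probe, r was 0.560 between STAT2 and IRF7 (Spearman's rho 0.048), -0.102 between STAT2 and IRF9 (rho -0.048), and -0.358 between IRF7 and IRF9 (rho -0.357), over 8 arrays. Adjusted over the 3 pairs, the exact permutation p was 0.452, 0.821 and 0.587 for r and 0.935 for each rho. Without the 2 arrays farthest from the median, r was -0.179, 0.092 and -0.183. The positive r of STAT2 with IRF7 rested on pregnant replicate 2, where both were highest: without that array it was -0.228. Scaling on the array median turned the r of STAT2 with IRF9 to 0.103. With 4 arrays a slide, no r was computed within slides, and deviations from the slide mean gave 0.028 for STAT2 with IRF9.

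Over all 8 arrays, the sign of the relation of STAT2 to the other factors differed between probe 1 and the other STAT2 probes. Without pregnant replicate 2, probe 1 too had a negative r with IRF7 (-0.228) and a positive r with IRF9 (0.323). With probes 2 to 5 in place of probe 1, over all 8 arrays, r of STAT2 with IRF7 was -0.412, -0.351, -0.442 and -0.724. The r of STAT2 with IRF9 was 0.659, 0.854, 0.414 and 0.467. The closest of these was probe 3 with IRF9, where r was 0.854 and rho 0.905 (exact permutation p adjusted over all 21 pairs of the 7 probes, 0.00755 and 0.0479). Both were highest in non-pregnant replicate 4 and lowest in non-pregnant replicate 2, and r was 0.870 without replicate 4 of that group and 0.839 without the 2 arrays farthest from the median (exact permutation p = 0.0361, n = 6). Use of the other probes was decided after the values were seen.

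STAT2 and IRF9 act together in ISGF3, and 15 of 38 listed genes that ISGF3 or interferon switches on were measured. Their mean level was highest in non-pregnant replicate 1 (3.44) and lowest in non-pregnant replicate 2 (1.55), with the pregnant sows between 2.37 and 2.73. STAT2 probe 2 had the highest Pearson r with this mean, 0.924 (rho 0.738), while rho was highest, at 0.810, for STAT2 probe 3 and IRF9. For STAT2 probe 2, 14 of the 15 targets had a positive r. STAT2 probe 4 had r = 0.793 (rho 0.667) and IRF9 had r = 0.744 (rho 0.810), the latter with a positive r for 15 of 15 targets. The median r over the 15 targets was 0.736 for STAT2 probe 2, 0.672 for probe 4 and 0.577 for IRF9. Over 1816 genes the median r also lay above 0, at 0.184, 0.166 and 0.244. For these 3 the exact permutation p adjusted over the 7 probes was 0.0370, 0.0420 and 0.0421 for r, and 0.107, 0.145 and 0.0762 for rho. The relation to the targets was not among the planned tests, and their list was chosen with earlier results of these data known. Its p-values, here and with arrays left out, are therefore a description. Why these levels varied together, and whether ISGF3 acted on the listed genes in these sows, was not tested.

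The relation to the targets was sensitive to single arrays. Over 7 arrays, r of STAT2 probe 2 ran from 0.856, with non-pregnant replicate 1 left out, to 0.990, with pregnant replicate 4 left out. Its adjusted exact permutation p was under the threshold without pregnant replicate 4 or non-pregnant replicate 4, and from 0.0583 to 0.163 without any other single array. STAT2 probe 4 likewise passed only without those same 2 arrays, and IRF9 only without non-pregnant replicate 4 (r = 0.875). Leaving out the 2 arrays farthest from its own median took r of STAT2 probe 2 to 0.560 (exact permutation p = 0.299), r of probe 4 to 0.891 (0.0431) and r of IRF9 to 0.939 (0.0181), over 6 arrays each. The mean of these targets was related to IRF7 at r = -0.155 (rho -0.310, adjusted exact permutation p = 0.689), with a positive r for 5 of the 15. For IRF7 the median r was -0.163 over the targets and -0.268 over 1816 genes. STAT2 probes 1, 3 and 5 had r of 0.363, 0.537 and 0.653, and their adjusted exact permutation p was 0.405, 0.270 and 0.115. Probe 3 had a rho of 0.810 (adjusted exact permutation p = 0.0762) and a positive r for 15 of 15 targets. Its median r was 0.332 over the targets and 0.223 over 1816 genes. With non-pregnant replicate 4 left out, its r with the mean of the targets was 0.952 (adjusted exact permutation p = 0.0153). The r of probe 5 was 0.843 with pregnant replicate 4 left out (adjusted exact permutation p = 0.0356), and that of probe 1 was 0.671 with pregnant replicate 2 left out (0.139).

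**Figure D5:**
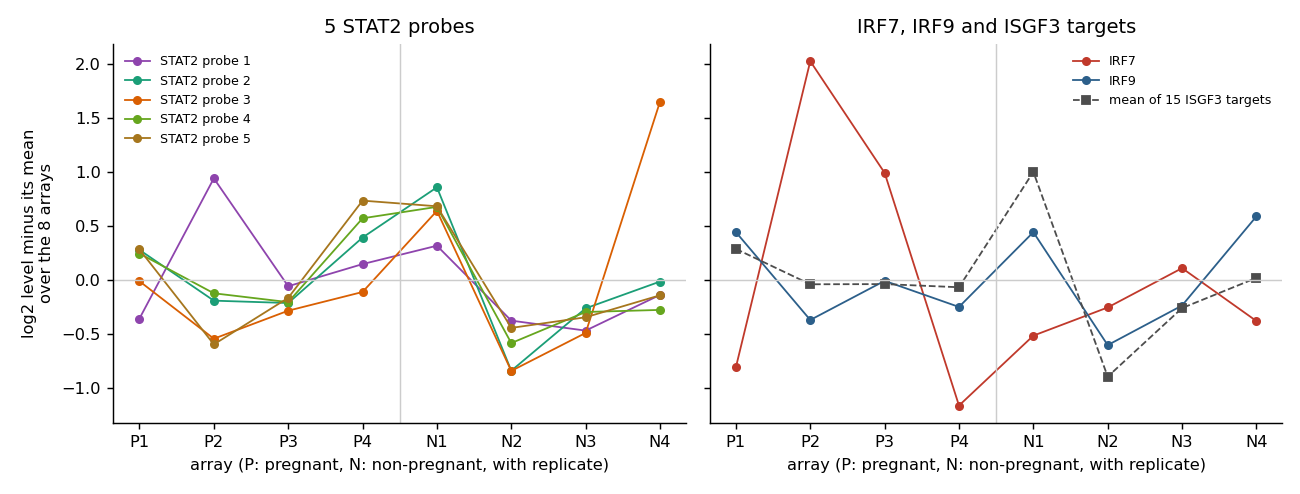
Log2 level minus its mean over the 8 arrays (vertical axis) on each array (P pregnant, N non-pregnant, with the replicate number) for the 5 STAT2 probes (left) and for IRF7, IRF9 and the mean of 15 ISGF3 targets (right); lines join the points of 1 probe and imply no order. STAT2 probe 1 departs from the other STAT2 probes on P2 and STAT2 probe 3 on N4, and IRF7 is highest on P2 and P3, where the target mean lies close to its average.

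The genes whose brightest probe was most like each member over the 8 arrays were taken from 1816 other genes with a symbol, as the 3 highest Pearson r. For IRF7 they were KCNA5, a potassium channel (r = 0.979), SREBF1, a regulator of lipid synthesis (0.978), and LDB1, a cofactor of LIM domain transcription factors (0.976). IRF7 had 117 genes at r above 0.9, where STAT2 probe 1 had 1 and IRF9 had 13. Without pregnant replicate 2 the 3 values for IRF7 were 0.956, 0.945 and 0.943.

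For IRF9 the closest genes were CD55, which protects cells from complement (r = 0.950), IFNGR2, a chain of the interferon gamma receptor (0.929), and the kinase LRRK2 (0.929). For STAT2 probe 1 they were VGLL3, a cofactor of TEAD transcription factors (0.908), PLIN2, a coat protein of lipid droplets (0.885), and the ubiquitin gene UBB (0.882), and without pregnant replicate 2 these fell to 0.799, 0.605 and 0.632. The same search for the other STAT2 probes was added after the values were seen. It put CXCL10, a chemokine induced by interferon and a listed ISGF3 target, first for probe 2 (0.980). It put the class I histocompatibility gene SLA-5 first for probe 3 (0.975), NAMPT, an enzyme of NAD synthesis, first for probe 4 (0.953), and the vesicle transport GTPase RAB1A first for probe 5 (0.966). Probes 4 and 5 had the same 3 genes at the top, NAMPT, RAB1A and FGL2. The highest of 1816 values over only 8 arrays is large by selection, and none of these is a test.

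Of 5 other STAT genes listed, all 5 were measured, 4 with a positive log2 fold change and 1 with a negative one, and 0 were called (limma). The median was 0.011, against -0.031 over all 1817 genes measured, of which 811 were positive and 1006 negative. STAT5B, which carries cytokine and growth hormone signals, was at 0.24, STAT6, which carries interleukin 4 signals, at 0.098 and STAT5A at 0.011. STAT4, which acts downstream of interleukin 12, was at -0.0042 and STAT3, an effector of interleukin 6, at 0.00040. The sign depended on the probe for STAT3 and STAT6, whose other probes gave -0.27 to -0.14 and -0.094. The median of these genes was -0.0093 on the median scale, -0.0025 in the deposited table and -0.035 without pregnant replicate 1.

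Of 6 other IRF genes listed 2 were measured, IRF1 and IRF3, and 0 were called (limma). IRF1, which is induced by interferon gamma, averaged 4.59 ± 0.35 with pregnancy and 4.52 ± 0.94 without, and IRF3, which switches on interferon beta, at 4.00 ± 0.22 and 3.92 ± 0.46 (SD, n = 4 each). The median of the pair was -0.020 within slide 1, 0.16 within slide 2 and -0.19 without non-pregnant replicate 2.

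The listed interferon receptors and kinases mostly had positive values, none of them called. This list is wider than the type I receptor and kinases ahead of STAT2 and IRF9, since it also holds chains of the interferon gamma receptor. Of 10 listed, 7 were measured, 6 with a positive and 1 with a negative log2 fold change (median 0.11, and 0 called by limma). The type I receptor chain IFNAR1 was at 0.50, with 0.23 at its other probe, and the shared receptor chain IL10RB at 0.46. IFNGR1, the ligand-binding chain of the interferon gamma receptor, was at 0.32, with 0.49 to 0.62 at other probes. TYK2 was at 0.048 and JAK1 at -0.17, with -0.023 to 0.17 at other JAK1 probes. The median of this list was 0.22 within slide 1 and 0.11 within slide 2, and leaving out pregnant replicate 1 took it to -0.012, leaving out non-pregnant replicate 2 to -0.10.

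The sensors and kinases ahead of IRF7 had 15 measured genes of 22 names listed, 11 positive and 4 negative (median 0.16, and 0 called by limma). TRAF6, a ubiquitin ligase that relays Toll-like receptor signals, was the only gene of the 6 lists with an unadjusted p under 0.05, and it stood at 1.89, 1.82, 0.26 and 2.16 in pregnant and at -0.34, -0.17, 1.61 and 0.17 in non-pregnant replicates 1 to 4. The groups crossed at pregnant replicate 3 and non-pregnant replicate 3. Its log2 fold change was 1.22 (95% interval 0.049 to 2.38, limma adjusted p = 1.00). The adaptor MYD88 was at 0.43 and the kinase IKBKB at 0.44. The sign of IKBKB depended on the slide, with 1.01 within slide 1 and -0.14 within slide 2, and its other probe gave 0.16. TRAF6 was thus the 1 of 48 list genes measured with an unadjusted limma p under 0.05, where 2.09% of all 1817 genes had one. The median of this list was 0.18 within slide 1 and 0.044 within slide 2.

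Downstream, the ISGF3 targets themselves included 9 genes above 0 and 6 below 0 in log2 fold change (median 0.026, and 0 called by limma), and that median was -0.0078 after quantile normalization. OASL was at 0.67, OAS2, which senses double-stranded RNA, at 0.48 and EIF2AK2, a kinase that halts translation, at 0.23 (limma adjusted p = 1.00 for each). Other OAS2 probes gave 0.072 to 0.42, and EIF2AK2 was at -0.057 within slide 1 and 0.51 within slide 2. The median of the targets was -0.33 within slide 1 and 0.28 within slide 2. The negative regulators had 4 measured genes of 12 listed, all 4 with a positive log2 fold change (median 0.13, and 0 called by limma). The brake of receptor signalling USP18 was at 0.94 (95% interval -0.061 to 1.93), TRIM21 at 0.17 and SOCS3, which blocks JAK kinases, at 0.098. The other SOCS2 probe was at -0.40, against 0.097 for the one counted, and without pregnant replicate 2 SOCS3 was at -0.16 and SOCS2 at -0.018, so that the count of 4 rested on the choice of probe and on that array. The median of the regulators was -0.033 within slide 1 and 0.47 within slide 2.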

How the data were processed

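Whole blood RNA of 8 sows was hybridised to 1 single-colour Agilent array each. The authors deposited 1 scanner output per sow, whose headers name version 10.7.3.1 of Agilent's Feature Extraction software (the submitters' processing notes give 10.7). Its processed signal is a linear intensity from which background and spatial trend had been removed, per the file headers, and arrays had not been normalized against each other. The deposited table of log2 values has no stated method. Each column followed log2 of its own array (r of 0.99892 or higher) in the direction of the signal, and all had a median of 5.02 or 5.03, while its centring stays unknown. It served as an alternative.

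From every log2 signal the 75th percentile of its array was subtracted. Control spots and spots marked as outliers were left out, spots of 1 probe were averaged, and 215 of 43603 probes marked on some array were dropped. A probe was kept if every array of either group had it well above background (26476, or 60.72%). Groups were compared over all kept probes by the moderated test of limma 3.58.1 (R 4.3.3; lmFit, then eBayes), which is two-sided, and p-values were adjusted by Benjamini and Hochberg's method (threshold 0.05). Each sow was on 1 array, so p-values measure the spread between sows and arrays together, and they take the sows as independent although 3 pairs were half-sibs.

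RefSeq accessions of the probes were looked up among genes of Sscrofa11.1, for their names alone: 2389 symbols matched, and 1817 genes had a kept probe. The brightest kept probe stood for a gene with several. Correlations were tested by exact permutation of the pairings in Python 3.11.15 (pandas 2.3.3, scipy 1.17.1). Ratios of SDs were tested there by permutation of the group labels over deviations from the group mean. Every split was counted, but such deviations are not strictly exchangeable, so these p-values are approximate. Plots were drawn with matplotlib 3.10.9. Both tests were checked on simulated data. The members, the 6 pathway lists and the marker lists were chosen with earlier results of these data known. Genes named are all members, the other STAT and IRF genes of the lists, up to 3 of smallest unadjusted p per other list and the 3 most similar to each member, besides TYK2 and JAK1, named after their values were seen. The number of arrays limits the precision. Normexp (offset 50) used the median spot intensity and local background that the authors deposited, with marked spots left out of its fit. A planned motif search was not run, because no promoter sequence was used here. The labels do not say whether replicate numbers mark the half-sib pairs, and the comparison was fitted without pairing. Some genes of the lists are not reported here and were left out of the lists' counts and medians.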

Additional observations from a re-analysis of the deposited data

Results flagged for a closer look

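Within groups of 4, the highest or lowest sow was compared with the others by Dixon's test at its 95% critical value, for the 7 member probes, the 48 other pathway genes and the mean of the ISGF3 targets. Of 112 groups tested 3 stood out (2.68%), where chance gives about 5%, and none of them was a probe of STAT2, IRF7 or IRF9. The receptor chain IFNGR2, one of the 3 genes closest to IRF9, stood at 3.92 in pregnant replicate 1 and at 2.94 to 3.00 in the other pregnant sows. IRF3 stood at 4.60 in non-pregnant replicate 4, the array where STAT2 probe 3 and IRF9 were highest, and at 3.62 to 3.78 in the other non-pregnant sows. The mean of the 15 ISGF3 targets was 2.73 in pregnant replicate 1 and 2.37 to 2.40 in the other pregnant sows.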

How the results depend on the processing

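All alternatives gave 0 called probes with limma, those leaving out an array included (0 to 0). Beside quantile normalization, scaling on the median, normexp, the deposited table, other filters and variance models, the slide as a block, each slide alone and array weights, arrays were left out in turn. STAT2 turned to -0.13 within slide 1 and to -0.48 with probe 3. STAT2 probes 2, 4 and 5 turned to -0.27, -0.17 and -0.11 within slide 1. IRF9 turned to 0.11 within slide 1. Array weights, whose estimation stopped early, gave 0.063 for IRF9, 0.94 for IRF7 and 0.20 for STAT2, and the mean of all STAT2 probes gave 0.072. Leaving out 1 array at a time, the log2 fold change ran from 0.077 to 0.51 for STAT2, from -0.066 to 1.00 for IRF7, from -0.31 to 0.086 for IRF9, from -0.13 to 0.44 for STAT2 probe 2 and from -0.098 to 0.37 for STAT2 probe 5. The r of STAT2 with IRF9 turned to 0.103 on the median scale, 0.028 over slide deviations, 0.690 with the mean of all probes, and 0.659, 0.854, 0.414 and 0.467 with probes 2 to 5. It ran from -0.360 to 0.323 with an array left out. The r of STAT2 with IRF7 turned to -0.394 with the mean of all probes and to -0.412, -0.351, -0.442 and -0.724 with probes 2 to 5, and ran from -0.228 to 0.697. STAT2 probe pairs past the threshold ran from 1 to 6, with 6 when pregnant replicate 2 and non-pregnant replicate 4 were both left out. The log2 ratio of SDs (non-pregnant over pregnant) of STAT2 ran from -1.70 to 0.47. The median of the negative regulators moved to 0.47 within slide 2. All 7 probes of the members were well above background on all 8 arrays.

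The replicate block left the log2 fold changes at 0.34 for STAT2, 0.52 for IRF7 and -0.094 for IRF9, with 0 probes called by limma (797 at an unadjusted p under 0.05, against 609). Same-numbered sows had correlations of their deviations of 0.218, 0.481, 0.434 and -0.118, and not every sow correlated best with its own number. They were positive for replicates 1 to 3, and 3 of the 4 pairs of sows were half-sibs, but the labels do not tie the numbers to those pairs, so the block is given as an alternative only.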
